A study of Mus musculus with 25 samples.

Results

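Matrix proteases and their inhibitors were examined in the sciatic nerve of 2 mouse models of Charcot-Marie-Tooth disease type 1A, the demyelinating neuropathy that a duplication of the PMP22 gene causes. The genes were chosen by symbol, as all protein-coding genes whose names begin with Mmp, Timp, Adamts or Adamtsl and a number. This gave 52 of the 56956 genes of the count table, and 40 of them reached a mean level of 0.5 CPM (counts scaled to the size of the library) over the 25 libraries and are described. Of these, 37 passed the filter on low counts for the comparisons between groups and 39 the one for age, and Mmp27, Adamts3 and Adamts18 entered no comparison between groups. The filter on levels could be passed through 1 high group alone, so the counts of members below refer only to those that were tested.

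Each of the 5 groups was represented by 5 libraries of poly(A) RNA, 1 for each of 5 ages (weeks 3, 5, 7, 9 and 12). Every library held the nerves of a pool of 4 to 5 untreated male and female mice. WT-C3 mice were C57BL/6J wild types, and C3 mice carried a human PMP22 transgene on the same background. By their label, C3-PMP22 c-JunP0Cre mice carried the C3 transgene and in addition lacked c-Jun in Schwann cells, by a Cre that is active in these cells. Neither the labels nor the study gives their background strain, so strain and loss of c-Jun cannot be told apart against C3. WT-C22 mice were FVB/NRJ wild types, and C22 mice of that strain carried more copies of the same transgene, the C3 line being a spontaneous partial revertant of the C22 line. Strain and number of copies therefore cannot be told apart between the models. No group had a further pool at the same age, so the 5 ages stood in as replicates (n = 5). Each SD contains the change with age, as does each standard error (SE) of a fit without a term for age.

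Matrix metalloproteinases (MMPs) are zinc enzymes that are secreted or held at the cell surface and cut collagens, laminins, growth factors and one another. ADAMTS proteases carry thrombospondin repeats that bind them to the matrix and cut proteoglycans, procollagens and microfibril proteins, while the ADAMTS-like proteins share those repeats but lack the protease part. The 4 tissue inhibitors of metalloproteinases (TIMPs) block the active site. In peripheral nerve this system is known for its work in the basal lamina of Schwann cells, in the endoneurium and perineurium, and after nerve injury, when Schwann cells, fibroblasts and macrophages release such enzymes.

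Libraries held between 2140142 and 49072746 counts on genes (median 24663235), the lowest being the C3 library of 9 weeks. Human PMP22, from the transgene, was counted at 7874 to 16297 CPM in the libraries labelled C3, C22 and C3-PMP22 c-JunP0Cre and at 6.3 CPM or less in those labelled wild type. It averaged 12550 ± 1850 CPM (SD, n = 5) in C3 and 12078 ± 1536 CPM in C22. The RNA of the transgene was thus not higher in C22, the line with more copies. In whole nerve, fewer cells of a type and less RNA per cell cannot be told apart.

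The members spanned a wide range of levels, given here as CPM scaled by the trimmed mean of M-values (TMM) per kilobase of exon, so that genes can be compared. Inhibitors stood at the top. Timp2, which also helps membrane-type MMPs to activate pro-MMP2, averaged 222 CPM per kilobase, and Timp3, the matrix-bound inhibitor that also blocks ADAMTS4 and ADAMTS5, averaged 179. Timp1 (2.18) and Timp4 (1.61) were far lower on this scale. Among the proteases, Mmp2, the gelatinase that cuts basement membrane collagen, averaged 117 CPM per kilobase and the membrane-type protease Mmp15 averaged 96.2. Mmp14, the membrane-type protease that activates pro-MMP2, averaged 34, and the highest secreted ADAMTS were Adamts2 (17.7), Adamts5 (13) and Adamts20 (11.2). The ADAMTS-like gene Adamtsl5 averaged 27.9 CPM per kilobase, above Adamtsl1 at 5.69 and Adamtsl3 at 5.03. Mmp9, the other gelatinase, averaged only 2.02.

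**Figure D1:**
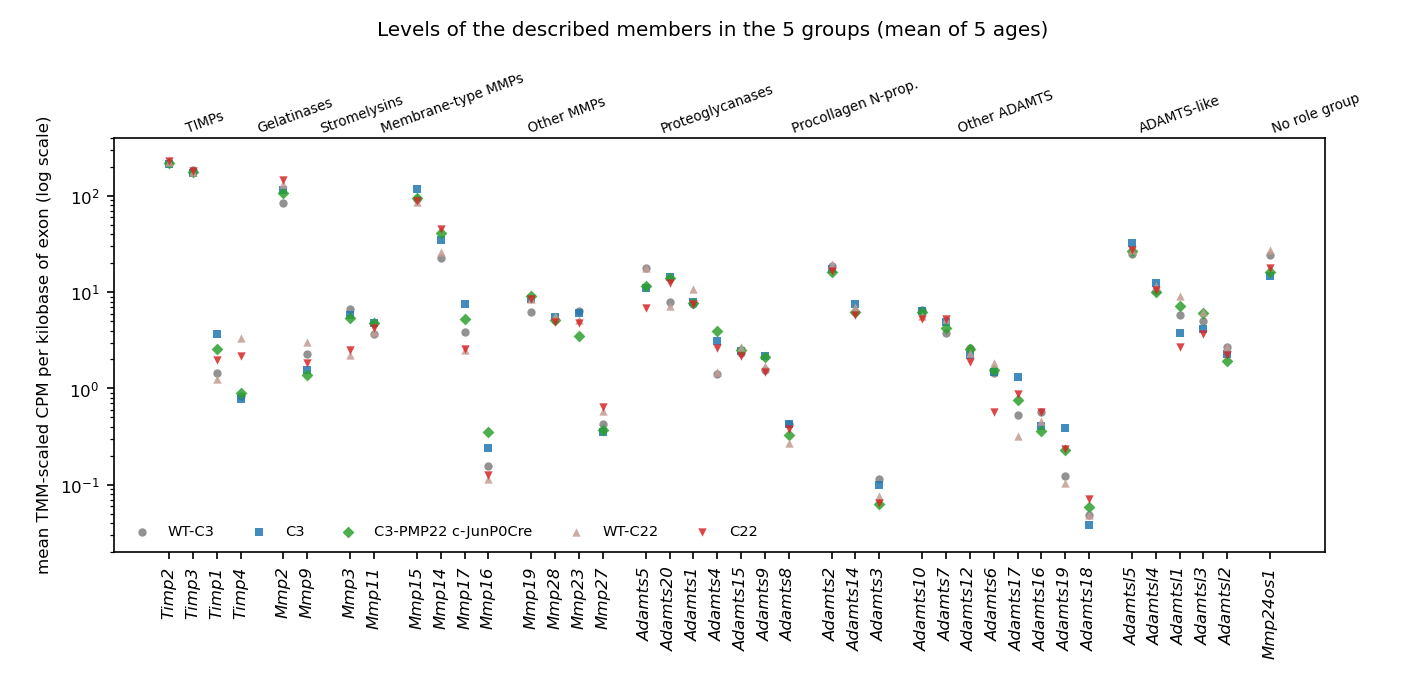
Mean TMM-scaled CPM per kilobase of exon (vertical log axis) of the 40 described members, ordered by role along the horizontal axis, with 1 symbol for each of the 5 groups (mean over 5 ages). Timp2, Timp3, Mmp2 and Mmp15 lead in all groups, and the groups lie close together for most members, with Timp4, Adamts17, Adamts19 and Adamts6 among those spread apart.

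The 12 members below the limit of 0.5 CPM included all 4 genes grouped here as collagenases, which cut fibrillar collagen. This group does not hold every enzyme that can cut it. The genes below the limit were the collagenases Mmp8 (mean 0.341 CPM), Mmp13 (0.103 CPM), Mmp1a and Mmp1b, beside Mmp12 (0.243 CPM), Mmp25, Mmp24, Mmp21, Adamts13, Mmp20, Mmp7 and Mmp10. Mmp1a, Mmp1b, Mmp7, Mmp10 and Mmp20 had no count in any library, which is under 3 counts per library, the limit taken for detection. Of the 12, 8 lie on chromosome 9. Markers of neutrophils, cells that store Mmp8 and Mmp9, were as scarce, at a summed 0 to 2.36 CPM over 5 genes, and none of the 5 passed the filter.

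The group comparisons bear on c-Jun, a subunit of the transcription factor AP-1, so the promoters of the members (250 bases before to 50 after the start) were searched for the AP-1 site TGACTCA, which reads TGAGTCA on the other strand. RefSeq promoters (GRCm38.p6) were found for 36 of the 52 members and 24 of the 40 described. A site was present in 7 members, all of them on chromosome 9, and 6 of these 7 were among the genes below 0.5 CPM. Over all 27025 genes with a promoter 5.95% held a site, over the 36 members found 19.4%, and over the 24 described members found 4.17%. The one described gene with a site was Mmp3, the stromelysin that cuts proteoglycans and activates other MMPs. Its whole promoter (chr9:7445572-7445871, plus strand) is shown because Mmp3 carries the site and differed between the strains, with the AP-1 site in capitals, which begins 46 bases before the start. The sequence is that of the reference genome, and no promoter of FVB/NRJ was examined.
Mmp3 promoter: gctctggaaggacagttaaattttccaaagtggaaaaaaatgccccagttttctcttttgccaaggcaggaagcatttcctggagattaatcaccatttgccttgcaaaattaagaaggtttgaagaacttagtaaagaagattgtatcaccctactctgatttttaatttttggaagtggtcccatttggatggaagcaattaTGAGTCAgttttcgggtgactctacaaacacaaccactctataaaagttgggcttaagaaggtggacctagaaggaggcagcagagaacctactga
The sites of the 6 genes below the limit are shown for comparison with 15 bases on either side, 5′ to 3′ on the strand of the gene, and again only the site is in capitals.
Mmp12 (chr9:7347315-7347351, plus strand): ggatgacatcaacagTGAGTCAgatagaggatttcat
Mmp13 (chr9:7272464-7272500, plus strand): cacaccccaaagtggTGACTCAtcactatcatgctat
Mmp10 (chr9:7502264-7502300, plus strand): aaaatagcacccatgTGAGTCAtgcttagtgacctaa
Mmp1a (chr9:7464053-7464089, plus strand): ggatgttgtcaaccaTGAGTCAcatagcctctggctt
Mmp1b (chr9:7388098-7388134, minus strand): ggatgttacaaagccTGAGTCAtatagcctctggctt
Mmp7 (chr9:7692012-7692048, plus strand): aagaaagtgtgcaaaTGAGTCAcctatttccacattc
Promoters were found for only 2 of the members called higher and 1 of those called lower in C3, and for 3 and 4 in C22. None of these, nor that of Mmp23, which passed in the comparison of c-Jun, held these letters in this window. Those of Mmp2, Mmp9, Mmp16, Mmp17, Mmp19, Mmp24os1, Adamts4, Adamts5, Adamts6, Adamts7, Adamts8, Adamts10, Adamts15, Adamts16, Adamts19 and Adamtsl1 were not in the table.

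Each model was compared with the wild type of its own strain to see which members differ in the transgenic nerve. In C3 5 members were higher (Timp1, Mmp14, Mmp17, Mmp19 and Adamts4) and 4 lower (Adamts5, Adamtsl1, Adamtsl3 and Mmp24os1), that is 24.3% of the 37 tested, by edgeR's quasi-likelihood test with a Benjamini-Hochberg adjusted p under 0.05. Over all 13993 genes 23.9% passed, 12.5% higher and 11.4% lower, so the share of members was near the background. In C22 5 members were higher (Mmp14, Adamts4, Adamts17, Adamts19 and Adamts20) and 8 lower (Adamts5, Adamts6, Adamtsl1, Adamtsl3, Adamts1, Adamts2, Adamts14 and Mmp24os1), or 35.1% of those tested. Here 42.4% of all genes passed, 21.9% higher and 20.5% lower, again no higher a share among the members than elsewhere. The median log2 change of the members was 0.06 in C3 and -0.05 in C22, beside 0.00 over all genes in both. Of all calls 52.1% were higher in C3 and 51.7% in C22, and with library size alone as the scale 71.4% and 75.8%, with all-gene medians of 0.08 and 0.17. Each model library had a wild type library of the same age, and with age as a block in the fit 13 members were higher and 6 lower in C3 (26.4% of all genes passed, 12.9% higher and 13.5% lower) and 5 higher and 13 lower in C22 (44.1%, 21.9% higher and 22.2% lower). The block kept all calls named above and added Mmp2, Mmp9, Mmp15, Mmp16, Adamts9, Adamts17, Adamts19, Adamts20, Adamtsl2 and Adamtsl5 in C3 and Timp4, Mmp9, Mmp28, Adamts12 and Adamts15 in C22. Below, a gene is said to have passed by the fit without the block unless the block is named. Mmp24os1 matches the rule by its symbol only. It is annotated opposite Mmp24 and is no metalloproteinase, and without it 3 members were lower in C3 and 7 in C22.

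**Figure D2:**
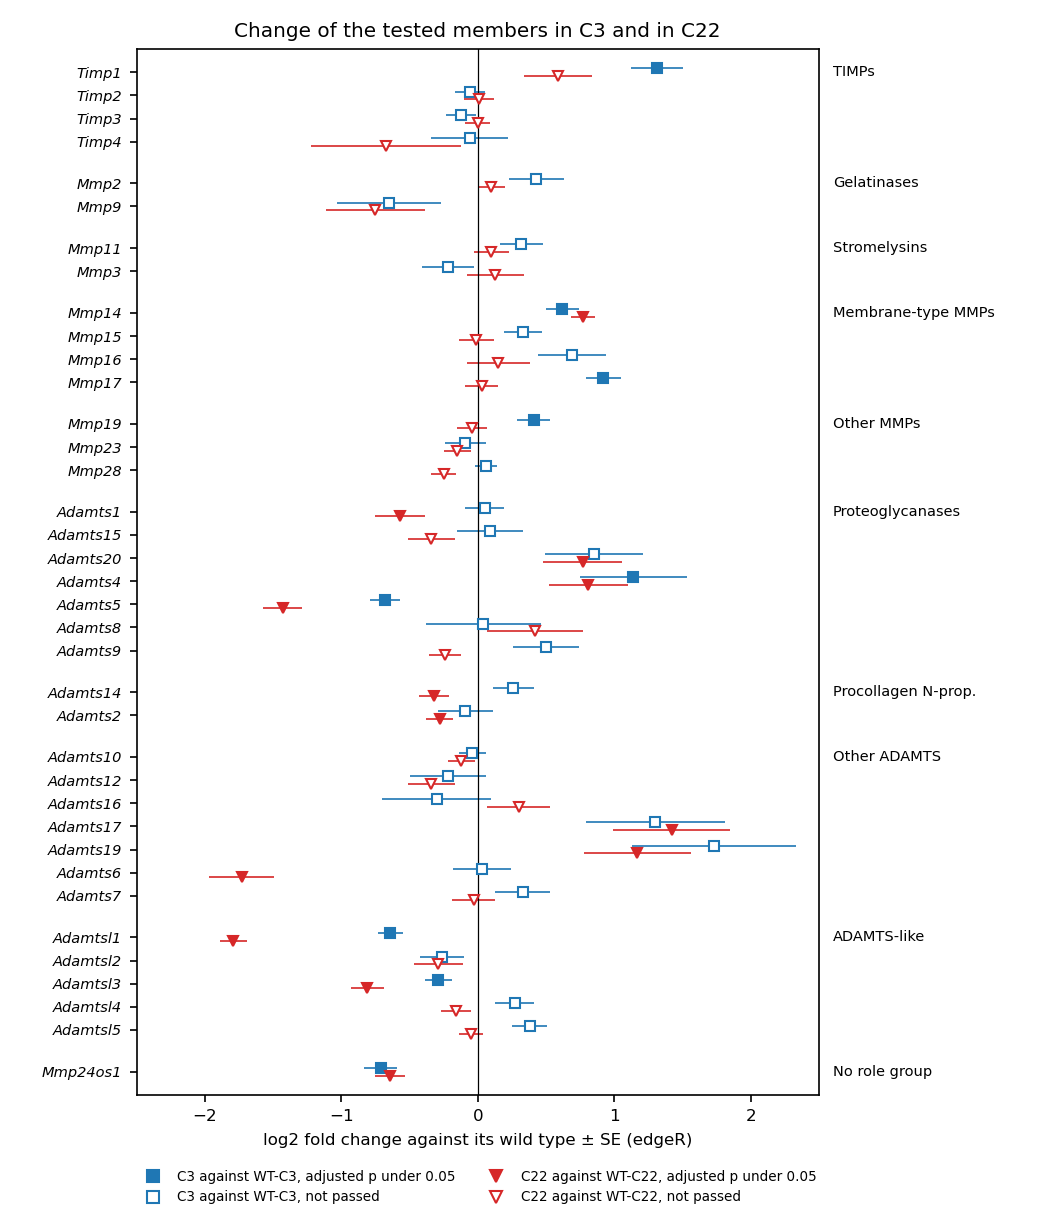
Log2 fold change of the 37 tested members in C3 against WT-C3 (blue squares) and C22 against WT-C22 (red triangles), with the SE of the fit as bars and filled symbols where the adjusted p was under 0.05. Mmp14 and Adamts4 lie to the right and Adamts5, Adamtsl1 and Adamtsl3 to the left of 0 in both models with filled symbols, while Timp1, Mmp17 and Mmp19 are filled for C3 alone and Adamts6 for C22 alone in the fit without age as a block.

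Among the inhibitors 1 of 4 passed, Timp1 in C3, and the block added Timp4 in C22. Timp1, which many cells release on injury, had 2.61, 1.93, 2.67, 4.01 and 2.95 CPM in WT-C3, in order of age here and throughout, and 5.91, 8.03, 7.82, 6.49 and 7.32 CPM in C3. All C3 libraries were above all WT-C3 libraries. The rise was 2.48-fold (log2 1.31 ± 0.19 SE, n = 5, adjusted p = 0.000722), and the value at 9 weeks in C3 rests on 15 counts. In WT-C22 Timp1 was at 1.47, 1.64, 3.27, 2.49 and 3.41 CPM and in C22 at 5.11, 3.05, 3.91, 4.21 and 2.91 CPM, so the groups overlapped and the difference did not pass (log2 0.59 ± 0.25, adjusted p = 0.0818). In C22 Timp1 did pass with all 25 libraries in 1 fit (adjusted p = 0.0228), with library size alone (0.0335) and without WT-C22 at 12 weeks (0.0437), and other settings that used every library gave up to 0.112.

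The other inhibitors did not pass in either model without the block. Timp2 had 834, 846, 1087, 1090 and 1034 CPM in WT-C3 and 847, 959, 989, 914 and 1050 CPM in C3, and in the FVB/NRJ strain 811, 862, 1062, 1099 and 1201 CPM in WT-C22 and 945, 1080, 1087, 1005 and 1082 CPM in C22. Its log2 differences were -0.06 ± 0.11 in C3 (adjusted p = 0.735) and 0.01 ± 0.11 in C22 (adjusted p = 0.929), and the first of these turns to 0.02 when counts are scaled by library size alone. Timp3 ran from 1185 to 1762 CPM in WT-C3 (1185, 1485, 1463, 1762 and 1635 CPM with age) and from 1217 to 1524 CPM in C3 (1217, 1486, 1447, 1352 and 1524 CPM). In WT-C22 it had 1306, 1410, 1478, 1582 and 1453 CPM and in C22 1373, 1515, 1613, 1408 and 1480 CPM. The groups overlapped in both strains, with log2 differences of -0.12 ± 0.11 (adjusted p = 0.491) and -0.00 ± 0.09 (adjusted p = 0.99), the second of which reads 0.17 with library size alone. Timp4, the least abundant inhibitor per kilobase, had 4.22, 6.48, 10.4, 5.9 and 5.35 CPM in WT-C3 and 3.82, 7.6, 5.97, 3.9 and 8.84 CPM in C3. WT-C22 libraries held 8.79, 7.71, 39.5, 44.6 and 29.4 CPM and in C22 7.27, 7.09, 22.1, 33.6 and 14.1 CPM, lower than its control at all 5 ages but with overlapping groups (log2 -0.67 ± 0.55, adjusted p = 0.346), and passed with age as a block (-0.60 ± 0.14, adjusted p = 0.00873).

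Membrane-type MMPs were the role group with the most rises in C3, 2 of 4. Mmp14 had 176, 123, 141, 128 and 126 CPM in WT-C3 and 263, 214, 232, 201 and 175 CPM in C3. Only the WT-C3 library of 3 weeks and the C3 library of 12 weeks met. The rise was 1.54-fold (log2 0.62 ± 0.12, adjusted p = 0.00403). In C22 the groups did not overlap, with 159, 153, 147, 149 and 192 CPM in WT-C22 against 269, 286, 281, 245 and 310 CPM in C22 (1.7-fold, log2 0.77 ± 0.09, adjusted p = 4.48e-05).

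Mmp17, which is anchored in the membrane by a lipid, moved in C3 but did not pass in C22. It had 27.6, 29.6, 24.4, 28.7 and 24.6 CPM in WT-C3 and 45.9, 63.8, 46, 63.6 and 42.3 CPM in C3, without overlap (1.89-fold, log2 0.92 ± 0.13, adjusted p = 0.000635). In WT-C22 it had 21.8, 19.3, 15.3, 16 and 14.9 CPM and in C22 19.2, 16.4, 20, 16.6 and 18.8 CPM (log2 0.03 ± 0.12, adjusted p = 0.853). Mmp15 and Mmp16, the other members of the group, did not pass in either model without the block, with log2 values in C3 of 0.33 ± 0.14 (adjusted p = 0.1) and 0.69 ± 0.25 (adjusted p = 0.0596), and both passed in C3 with the block (0.33 ± 0.09, adjusted p = 0.0247, and 0.60 ± 0.19, adjusted p = 0.049).

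Both gelatinases differed from WT-C3 in C3 when age was a block, Mmp2 upward and Mmp9 downward, and neither passed without it. Mmp2 had 379, 273, 352, 228 and 251 CPM in WT-C3 and 473, 540, 470, 266 and 288 CPM in C3, higher at all 5 ages but with groups that overlap (log2 0.43 ± 0.20, adjusted p = 0.139, and with the block 0.41 ± 0.11, adjusted p = 0.0248). For WT-C22 the values of Mmp2 were 523, 459, 496, 419 and 462 CPM and in C22 588, 460, 590, 466 and 475 CPM (log2 0.10 ± 0.10, adjusted p = 0.463). Mmp9 had 4.15, 5.4, 12.6, 10 and 10.3 CPM in WT-C3 and 2.09, 4.41, 6.6, 8.23 and 7.36 CPM in C3, lower at all 5 ages (log2 -0.65 ± 0.38, adjusted p = 0.241, and with the block -0.63 ± 0.17, adjusted p = 0.0243). In WT-C22 Mmp9 had 4.86, 5.55, 13.1, 12.4 and 19.9 CPM and in C22 3.93, 6.3, 8.03, 6.96 and 8.99 CPM (log2 -0.75 ± 0.36, adjusted p = 0.112, and with the block -0.63 ± 0.18, adjusted p = 0.0217). Of the stromelysins Mmp3 and Mmp11, none passed in either model.

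Mmp19, a secreted protease of basement membrane proteins, was the only one of 3 other MMPs that passed, in C3. It had 22.7, 20.4, 26.5, 19.3 and 22.1 CPM in WT-C3 and 33.9, 35.4, 27.7, 27.3 and 24.8 CPM in C3, where the library of 12 weeks lay within the range of the controls (1.33-fold, log2 0.41 ± 0.12, adjusted p = 0.023). In WT-C22 the values were 28.3, 23.6, 34.3, 28.2 and 34.8 CPM and in C22 32.1, 25.1, 30.9, 34.3 and 26.3 CPM (log2 -0.04 ± 0.11, adjusted p = 0.802).

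The ADAMTS that cut aggrecan, versican and related proteoglycans went both ways, with 1 of 7 higher and 1 lower in C3 and 2 of 7 higher and 2 lower in C22. Adamts5, a main aggrecanase, had 175, 181, 180, 237 and 192 CPM in WT-C3 and 126, 119, 127, 93.9 and 140 CPM in C3. The groups were apart and the level fell to 0.622 of the control (log2 -0.68 ± 0.11, adjusted p = 0.00127). In WT-C22 it had 174, 183, 189, 227 and 211 CPM and in C22 56.1, 65.1, 70.7, 96.4 and 85.3 CPM, 0.371 of the control (log2 -1.43 ± 0.14, adjusted p = 1.23e-05). Between the wild types the log2 difference of Adamts5 was 0.00 ± 0.10 (adjusted p = 0.99).

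Adamts4, the other main aggrecanase, moved the opposite way. It had 16.1, 8.26, 7.46, 8.9 and 5.47 CPM in WT-C3 and 43.3, 18.4, 17, 13 and 9.74 CPM in C3, higher at each of the 5 ages although the groups overlap, and the level declined with age in both (2.21-fold, log2 1.14 ± 0.39, adjusted p = 0.0496). In WT-C22 the values were 16, 11.2, 7.83, 6.91 and 5.96 CPM and in C22 24.4, 20.6, 15, 12.3 and 12.7 CPM (1.75-fold, log2 0.81 ± 0.29, adjusted p = 0.0411). Adamts20, a versican-cutting member, ran from 51.7 to 162 CPM in WT-C3 and from 94.6 to 308 CPM in C3, higher at all 5 ages, where it passed with the block (log2 0.82 ± 0.07, adjusted p = 0.000245) and not without (adjusted p = 0.106). It ran from 45.4 to 157 CPM in WT-C22 and from 114 to 192 CPM in C22 (1.7-fold, log2 0.77 ± 0.29, adjusted p = 0.0497). Adamts1, which also cuts versican, had 39.6, 41.4, 48.1, 33.2 and 46.6 CPM in WT-C3 and 40.2, 51.6, 48.9, 27.7 and 47.4 CPM in C3 (log2 0.05 ± 0.14, adjusted p = 0.833). The WT-C22 values were 42.2, 46.2, 79.8, 61.4 and 69.3 CPM and in C22 37.6, 33.6, 40.8, 54.8 and 39.4 CPM, lower at all 5 ages (log2 -0.57 ± 0.18, adjusted p = 0.0233).

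Both tested procollagen N-propeptidases, which trim fibrillar procollagens so that fibrils can form, were modestly lower in C22 and passed in no comparison of C3. Adamts2 had 209, 185, 183, 157 and 201 CPM in WT-C22 and 184, 168, 158, 149 and 131 CPM in C22 (log2 -0.28 ± 0.10, adjusted p = 0.0458). Its values were 252, 156, 207, 133 and 129 CPM in WT-C3 and 197, 194, 193, 136 and 113 CPM in C3 (log2 -0.09 ± 0.20, adjusted p = 0.781). Adamts14 had 46.2, 45.3, 41.6, 32.6 and 39 CPM in WT-C22 and 39.3, 30, 34.3, 29.1 and 34.4 CPM in C22 (log2 -0.32 ± 0.11, adjusted p = 0.0367). In WT-C3 it had 44.5, 35, 38.7, 24.2 and 39.2 CPM and in C3 49.3, 45.4, 49.4, 43.3 and 32.9 CPM (log2 0.26 ± 0.15, adjusted p = 0.253).

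Among the 7 other ADAMTS tested, 2 were higher and 1 lower in C22 and none passed in C3 without the block. Adamts6, a protease of fibrillin microfibrils, had 22.5, 14, 13.7, 13.7 and 8.83 CPM in WT-C22 and 5.32, 3.25, 4.46, 3.7 and 5.66 CPM in C22. No C22 library reached the lowest WT-C22 library, and the level was 0.302 of the control (log2 -1.73 ± 0.24, adjusted p = 0.000164). In WT-C3 it had 12.1, 15, 9.46, 9.45 and 10.9 CPM and in C3 18.1, 9.92, 12.8, 8.23 and 8.67 CPM, which did not pass (log2 0.03 ± 0.21, adjusted p = 0.946).

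Adamts17, a relative of Adamts19 that is also tied to microfibrils, had 7.44, 3.39, 2.78, 2.37 and 1.81 CPM in WT-C22 and 17.7, 12.3, 7.29, 5.23 and 6.08 CPM in C22 (2.68-fold, log2 1.42 ± 0.43, adjusted p = 0.0203). In WT-C3 it had 12.8, 6.71, 6.12, 2.68 and 1.44 CPM and in C3 24.5, 19.8, 13.2, 8.23 and 6.29 CPM, higher at all 5 ages (log2 1.30 ± 0.51, adjusted p = 0.0832, and with the block 1.38 ± 0.19, adjusted p = 0.00131). Adamts19 had 2.58, 2.06, 1.24, 0.868 and 0.764 CPM in WT-C22 and 5.91, 3.45, 2.54, 2.12 and 2.67 CPM in C22 (2.25-fold, log2 1.17 ± 0.39, adjusted p = 0.0306). Its values in WT-C3 were 3.99, 1.85, 2.23, 0.157 and 0.541 CPM, the fourth from 2 counts and so under the limit of 3, and in C3 8.76, 8.39, 6.05, 2.16 and 2.22 CPM (log2 1.73 ± 0.60, adjusted p = 0.0558, and with the block 1.74 ± 0.29, adjusted p = 0.00351). For both genes the 2 models were above their wild types at each age, although the ranges of the groups overlap.

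Of the 5 ADAMTS-like genes, Adamtsl1 and Adamtsl3 were lower in both models. Adamtsl1, also called punctin, had 90.1, 94.1, 86.6, 84.2 and 81.4 CPM in WT-C3 and 49.1, 63.1, 67.2, 50.2 and 54 CPM in C3, 0.643 of the control (log2 -0.64 ± 0.09, adjusted p = 0.00069). In WT-C22 it had 136, 124, 148, 151 and 130 CPM and in C22 36.5, 33.1, 42.4, 43.5 and 47.9 CPM, 0.288 of the control (log2 -1.79 ± 0.10, adjusted p = 1.9e-07). Neither model overlapped its wild type, and the C22 value had the smallest adjusted p of the members in any comparison of a model. Adamtsl3 had 47, 40.2, 42.4, 41.2 and 43.5 CPM in WT-C3 and 44.4, 32.6, 35.8, 29.4 and 33.6 CPM in C3 (log2 -0.29 ± 0.10, adjusted p = 0.0443), with the C3 library of 3 weeks within the controls. In WT-C22 the values were 45.2, 43.5, 59.9, 54.5 and 61.8 CPM and in C22 26.4, 26.2, 32.3, 33 and 36.3 CPM, without overlap (log2 -0.81 ± 0.12, adjusted p = 0.000277). Mmp24os1, the gene opposite Mmp24, had 34.4, 38.3, 39, 46.8 and 41.7 CPM in WT-C3 and 18.8, 27.8, 26.5, 21.2 and 28.5 CPM in C3 (log2 -0.71 ± 0.12, adjusted p = 0.0023), and 57.4, 39.6, 37.2, 41 and 49.1 CPM in WT-C22 and 33.2, 30.6, 26.9, 27 and 29.1 CPM in C22 (log2 -0.64 ± 0.11, adjusted p = 0.000872).

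The changes in the 2 models were set against each other in a fit of all 4 groups. The change in C22 was lower than that in C3 for 5 of 37 members (13.5%) and higher for none by the same threshold. Of all genes tested 12.1% passed, 4.75% higher and 7.31% lower in C22. Adamts6 differed by -1.77 ± 0.34 on the log2 scale (adjusted p = 0.00139), Adamtsl1 by -1.17 ± 0.14 (adjusted p = 8.33e-06), Mmp17 by -0.91 ± 0.18 (adjusted p = 0.00248), Adamts5 by -0.76 ± 0.18 (adjusted p = 0.00852) and Adamtsl3 by -0.54 ± 0.16 (adjusted p = 0.0313). For Adamts5, Adamtsl1 and Adamtsl3 this was a deeper fall in C22, for Adamts6 a fall in C22 beside no passing change in C3, and for Mmp17 a rise in C3 beside none that passed in C22. Adamtsl1 and Mmp17 also differed between the wild types. Adamtsl1 averaged 138 CPM in WT-C22 and 87.3 CPM in WT-C3, and Mmp17 17.5 and 27 CPM. The part of the wild type levels in these differences was not tested. For Timp1 the difference of -0.74 ± 0.32 did not pass (adjusted p = 0.157), and for Mmp14 it was 0.12 ± 0.15 (adjusted p = 0.691). With the block 7 members were lower and 0 higher, where 14.7% of all genes passed (5.72% higher and 8.95% lower), and those added were Adamts14 (-0.58 ± 0.16, adjusted p = 0.0196) and Adamts9 (-0.76 ± 0.23, adjusted p = 0.0341). The median difference of the members was -0.36, beside -0.03 over all genes. Of all calls 39.4% were higher in C22, and 62.8% with library size alone.

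**Figure D3:**
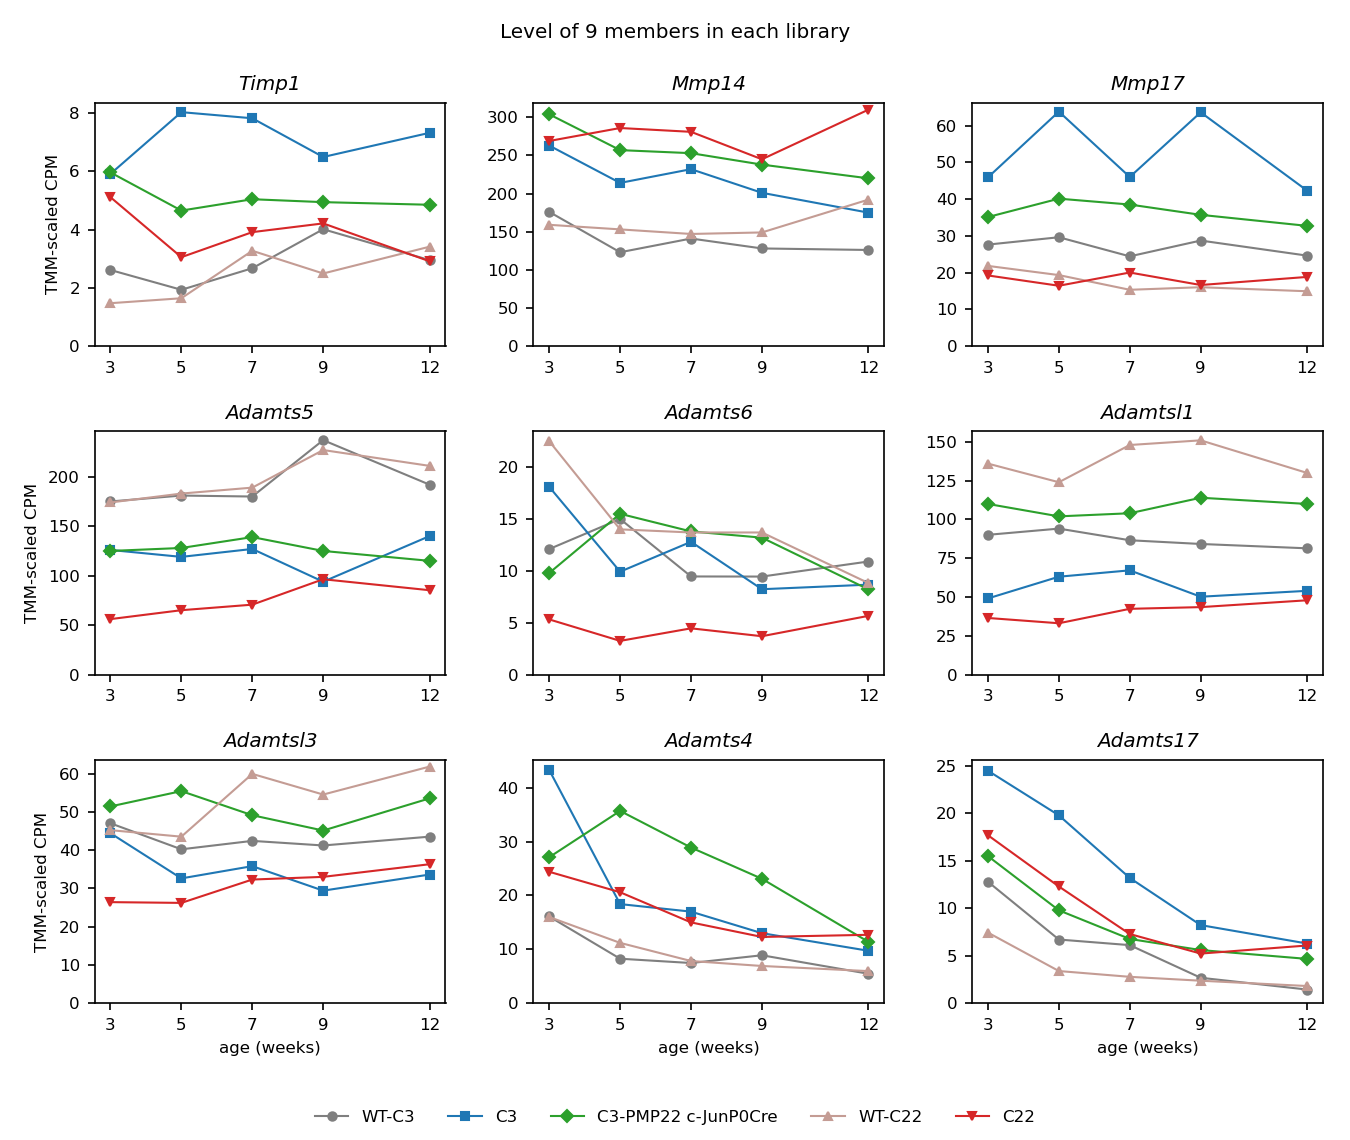
TMM-scaled CPM (vertical axis, from 0) against age in weeks for 9 members, with 1 point for each library and 1 line for each of the 5 groups. Adamts5 and Adamtsl1 run lowest in C22 at most ages and Mmp17 highest in C3 at every age, and Adamts4 and Adamts17 decline with age while the models stay above their own wild types.

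The members whose calls held throughout lie on several chromosomes (GRCm39). Adamtsl1 (ENSMUSG00000066113) spans chr4:85432409-86346622 and Adamts5 (ENSMUSG00000022894) chr16:85653061-85698716. Mmp14 (ENSMUSG00000000957) spans chr14:54668878-54682821 and Mmp17 (ENSMUSG00000029436) chr5:129661084-129688163. Adamts6 (ENSMUSG00000046169) spans chr13:104424343-104633203 and Timp1 (ENSMUSG00000001131) chrX:20736316-20740976. Each count is over the exons of the whole gene, so isoforms cannot be told apart.

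Leaving out any single library kept the calls of Timp1, Mmp14, Mmp17, Adamts5, Adamtsl1 and Mmp24os1 in C3 and of Mmp14, Adamts5, Adamts6, Adamtsl1, Adamtsl3 and Mmp24os1 in C22, and those of Adamts5, Adamts6, Adamtsl1 and Mmp17 in the difference. The other calls were marginal. In C3, Mmp19 was lost without C3 at 3 or 5 weeks or WT-C3 at 5 or 9 weeks (adjusted p 0.0534 to 0.0692), Adamts4 without C3 at 3, 5 or 7 weeks or WT-C3 at any age but 3 weeks (0.0669 to 0.131), and Adamtsl3 without any library but C3 at 3 weeks (0.0589 to 0.114). In C22, Adamts17 was lost without C22 at 3 weeks or WT-C22 at 7 or 9 weeks (0.0516 to 0.0569), and Adamts19 and Adamts1 without C22 at 3 or 5 weeks or WT-C22 at 7, 9 or 12 weeks (0.0552 to 0.0836 and 0.0514 to 0.0674). Adamts4 was lost without C22 at 3, 5 or 7 weeks or WT-C22 at 7, 9 or 12 weeks (0.0547 to 0.106), Adamts20 without any library but C22 at 9 weeks or WT-C22 at 3 weeks (0.061 to 0.118), Adamts2 without any but C22 at 3 weeks or WT-C22 at 9 weeks (0.0522 to 0.101), and Adamts14 without C22 at 5, 7, 9 or 12 weeks or WT-C22 at 3, 5 or 7 weeks (0.0552 to 0.0827). The difference for Adamtsl3 was lost without C3 at 3 or 7 weeks, WT-C3 at 5 or 9 weeks, C22 at 3, 5 or 7 weeks or WT-C22 at 7, 9 or 12 weeks (0.0503 to 0.0786). Counts of calls in C3 without the shallow library of 9 weeks were 7 higher and 3 lower, beside 1893 and 1732 over all 13993 genes.

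Markers of cell types were followed beside the members. Of 7 tested markers of repair or immature Schwann cells all were higher in C3, at 526 to 715 CPM summed over the 10 listed genes against 259 to 312 CPM in WT-C3, and 4 were higher and 2 lower in C22 (396 to 559 CPM against 266 to 339 CPM). All 5 genes of proliferation were higher in both models. Perineurial markers were lower for 4 of 6 in C3 (1234 to 1595 CPM against 1276 to 2003 CPM) and 5 of 6 in C22 (942 to 1204 CPM against 1301 to 2103 CPM), endothelial markers for 1 of 6 and 4 of 6, and those of pericytes and smooth muscle for 2 of 6 and 4 of 6. Fibroblast markers passed for 0 of 8 in C3 and 1 of 8 in C22, where it was lower, with summed levels of 7832 to 18917 CPM in C3, 8117 to 20194 CPM in WT-C3, 7877 to 15921 CPM in C22 and 9062 to 16429 CPM in WT-C22. Macrophage markers were higher for 1 and lower for 1 of 10 in C3, and higher for 2 and lower for 2 in C22. Markers of myelinating Schwann cells were higher for 2 and lower for 2 of 8 in C3, and higher for 1 and lower for 4 in C22. Summed, they had 36584 to 56383 CPM in C3 against 54630 to 96927 CPM in WT-C3. In C22 they had 24230 to 37007 CPM against 45882 to 92801 CPM in WT-C22. These sums weigh the most abundant markers most. Of the 2 tested markers of cartilage and tendon 1 was higher and 1 lower in C3, and 1 was lower in C22. The part of these cells in the results on Timp1, Mmp14, Mmp17, Adamts5, Adamts6, Adamtsl1 and Adamtsl3 was not tested.

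Genes around the proteases were counted from lists of general knowledge. Among 18 tested activators and regulators 4 were higher and 2 lower in C3, and 2 higher and 8 lower in C22 (median log2 0.10 and -0.30). Serpine2, a serpin that blocks the plasminogen activators, rose in both (log2 0.80 ± 0.09, adjusted p = 0.000123, and 0.91 ± 0.12, adjusted p = 9.18e-05), as did Cd44, a hyaluronan receptor on which MMPs can dock (1.33 ± 0.18, adjusted p = 0.000486, and 1.23 ± 0.11, adjusted p = 7.18e-06). A2m, the broad protease trap alpha-2-macroglobulin, fell in C22 (-1.58 ± 0.18, adjusted p = 3.4e-05). Pcsk6, a convertase that activates proproteins, fell in both models (-0.89 ± 0.18, adjusted p = 0.00518, and -1.62 ± 0.26, adjusted p = 0.000423).

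Among 17 other matrix-processing proteases 2 were higher and 2 lower in C3, and 3 higher and 2 lower in C22. Tll1, a tolloid protease that trims the C-terminal end of procollagens, fell in C3 (log2 -0.62 ± 0.16, adjusted p = 0.0168) and also in C22 (adjusted p = 5.86e-07), and the difference passed (-2.40 ± 0.27, adjusted p = 4.26e-06). Adam17, the shedding enzyme of TNF, rose in C22 (1.02 ± 0.14, adjusted p = 0.000159), where the shedding enzyme Adam10 fell (-0.83 ± 0.13, adjusted p = 0.000447). Among 12 tested substrates 2 were higher in C3 and 2 lower in C22. Tnc, the matrix protein tenascin-C, rose in C3 (1.95 ± 0.34, adjusted p = 0.00231) and Vcan, the proteoglycan versican, fell in C22 (-0.57 ± 0.11, adjusted p = 0.00162). The change in C22 was lower than that in C3 for 3 regulators, 1 other protease and 3 substrates, and higher for none.

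C3-PMP22 c-JunP0Cre was compared with C3 to see which members differ in nerves whose Schwann cells lack c-Jun. The background of these mice is not given, so loss of c-Jun and other differences between the lines cannot be told apart. Jun itself had 95.1, 118, 111, 116 and 105 CPM in C3 and 31.6, 29.8, 26.4, 27.4 and 31.7 CPM in C3-PMP22 c-JunP0Cre (log2 -1.90 ± 0.09, adjusted p = 7.29e-07), and in WT-C3 between 50.1 and 70.5 CPM. Of 37 members 1 was higher and 1 lower (2.7% each), where 0.550% of all genes passed, 0.222% higher and 0.329% lower. Both, Adamtsl1 and Mmp23, lie on chromosome 4, with starts at positions 85432409 and 155735111, and the part of DNA linked to the altered Jun allele was not tested. Mmp16, a further tested member on chromosome 4, did not pass (log2 0.43 ± 0.24, adjusted p = 0.744 by edgeR's test). Libraries of the same age deviated together in this comparison, and with age as a block 2 members were higher and 3 lower, against 1.95% of all genes (1.17% higher and 0.779% lower). The median log2 difference was -0.08 over members and -0.00 over all genes.

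Adamtsl1 rose by 1.89-fold without c-Jun. It had 110, 102, 104, 114 and 110 CPM in C3-PMP22 c-JunP0Cre, against 49.1 to 67.2 CPM in C3 (log2 0.92 ± 0.09, adjusted p = 0.00036, and with the block 0.92 ± 0.09, adjusted p = 0.00137). The libraries without c-Jun were above those of C3 and also above those of WT-C3, the highest of which had 94.1 CPM, a contrast that was not tested. Adamtsl3 had 51.4, 55.4, 49.1, 45.1 and 53.5 CPM, all above the C3 libraries, and passed with the block (log2 0.53 ± 0.09, adjusted p = 0.023) but not without (0.51 ± 0.10, adjusted p = 0.0547). It also passed with DESeq2 (0.00117), no filter (0.0458), filterByExpr (0.0461) and all 25 libraries in 1 fit (0.012).

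Mmp23, a protease of the membrane and secretory pathway, fell to 0.564 of the level in C3. It had 15.4, 17.6, 20.4, 15.6 and 13.2 CPM in C3 and 10.4, 10.2, 9.08, 7.15 and 9.95 CPM without c-Jun, with no overlap (log2 -0.83 ± 0.14, adjusted p = 0.0215, and with the block -0.80 ± 0.14, adjusted p = 0.021). In WT-C3 it had 18.4, 17.5, 21.4, 15.7 and 13.2 CPM, in WT-C22 13.5, 14.2, 13.2, 12.4 and 16.4 CPM and in C22 14.3, 13.8, 12.5, 12.7 and 10.9 CPM, so that neither model passed (log2 -0.09 ± 0.15, adjusted p = 0.709, and -0.15 ± 0.10, adjusted p = 0.272). The call was lost without the C3 or C3-PMP22 c-JunP0Cre library of 5 or 7 weeks (adjusted p 0.0563 to 0.0836), while that of Adamtsl1 was kept in all 10 fits that left out a library.

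Mmp17 had 35.1, 40.1, 38.5, 35.7 and 32.7 CPM without c-Jun, between the ranges of WT-C3 and C3 and touching neither. Against C3 it was -0.52 ± 0.13 on the log2 scale (adjusted p = 0.171), and it passed with the block (-0.50 ± 0.10, adjusted p = 0.0422), with DESeq2 (0.0172) and with all 25 libraries (0.0301). Adamts17 had 15.5, 9.79, 6.77, 5.6 and 4.67 CPM, lower than C3 at all 5 ages, and passed with the block and with none of the other settings that used every library (-0.76 ± 0.12, adjusted p = 0.014, against -0.83 ± 0.39, adjusted p = 0.657). Timp1 had 5.96, 4.65, 5.04, 4.94 and 4.85 CPM and was lower than C3 at 4 of 5 ages (log2 -0.50 ± 0.13, adjusted p = 0.161, and with the block -0.50 ± 0.15, adjusted p = 0.16), and passed with DESeq2.

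The other members that had moved in C3 did not pass against C3. Mmp14 had 304, 257, 253, 238 and 220 CPM without c-Jun, above C3 at each age without passing (log2 0.21 ± 0.11, adjusted p = 0.704). Adamts5 had 125, 128, 139, 125 and 115 CPM (log2 0.05 ± 0.09, adjusted p = 0.972), Adamts4 27.1, 35.7, 28.9, 23.1 and 11.4 CPM (0.27 ± 0.38, adjusted p = 0.938) and Mmp19 32.9, 35.9, 32.4, 27 and 33 CPM (0.10 ± 0.11, adjusted p = 0.909). Timp2 ran from 895 to 1112 CPM (981, 953, 895, 949 and 1112 CPM), Timp3 from 1392 to 1507 CPM (1507, 1449, 1392, 1456 and 1505 CPM) and Timp4 from 5.05 to 12.6 CPM (5.05, 6.25, 5.7, 5.55 and 12.6 CPM), with adjusted p of 0.962 or more. Mmp2 had 503, 439, 373, 273 and 314 CPM and Mmp9 2.13, 5.05, 4.71, 5.02 and 8.9 CPM, within 0.11 of C3 on the log2 scale. Adamts1 (37.2, 39.2, 36.9, 37.4 and 60.8 CPM), Adamts2 (211, 175, 156, 94.1 and 124 CPM), Adamts6 (9.79, 15.5, 13.8, 13.2 and 8.22 CPM), Adamts14 (45.1, 36.7, 36, 33.5 and 29.2 CPM), Adamts19 (7.29, 3.85, 3.31, 1.18 and 0.652 CPM) and Mmp24os1 (29.1, 23.2, 22.8, 28.8 and 29.4 CPM) did not pass with or without the block.

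**Figure D4:**
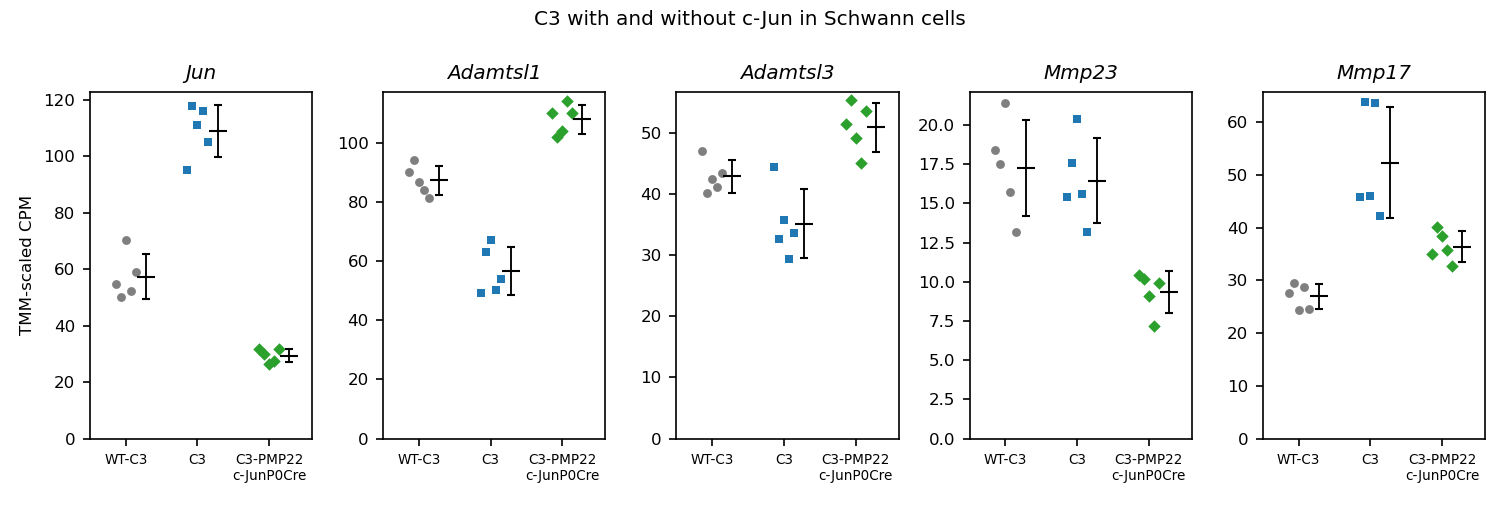
TMM-scaled CPM (vertical axis, from 0) of Jun and 4 members in the 5 libraries each of WT-C3, C3 and C3-PMP22 c-JunP0Cre, with points placed in order of age and the mean and SD of the 5 as a black bar. Jun, Mmp23 and Mmp17 are lower and Adamtsl1 and Adamtsl3 higher without c-Jun than in C3, with no library in common, and Mmp17 and Adamtsl3 passed with age as a block but not without it.

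Of the 7 markers of repair or immature Schwann cells 3 were lower without c-Jun, Jun, Ngfr and Gfap, at a summed 332 to 389 CPM. Jun, which these mice lack in Schwann cells by their label, is counted among the 3 and in the sum. None of the markers of fibroblasts, perineurial cells, endothelial cells, pericytes, macrophages, mast cells or adipocytes passed. Skeletal muscle markers ranged from 5.6 to 846 CPM without c-Jun and from 142 to 5103 CPM in C3, with no marker passing. The part of muscle or Schwann cells in the results on Adamtsl1 and Mmp23 was not tested. Of the 18 activators and regulators, 17 other proteases and 12 substrates none passed edgeR's test.

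The wild types were compared to see how far the strains differ before any transgene. In WT-C22 4 members were higher (Timp4, Mmp2, Adamtsl1 and Mmp19) and 2 lower (Mmp3 and Mmp17) than in WT-C3, or 16.2% of those tested. Over all genes 21.7% passed, 9.99% higher and 11.7% lower. With age as a block 6 were higher and 2 lower (26.6% of all genes passed, 12.7% higher and 13.9% lower), Adamts1 and Adamts7 being added. Timp4 was 4.02-fold higher (26 ± 17.1 CPM, SD, n = 5, against 6.46 ± 2.33 CPM, log2 2.01 ± 0.47, adjusted p = 0.00965), mostly by the libraries from 7 weeks on, since those of 3 and 5 weeks lay within the range of WT-C3. Mmp2 was 1.56-fold higher and Adamtsl1 1.55-fold, both without overlap (log2 0.64 ± 0.14, adjusted p = 0.00616, and 0.63 ± 0.07, adjusted p = 6.06e-05). Mmp19 was 1.32-fold higher (log2 0.40 ± 0.11, adjusted p = 0.0254), a call lost without WT-C3 at 5, 9 or 12 weeks or WT-C22 at 7 or 12 weeks (0.0525 to 0.0698).

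Mmp3, the described gene with an AP-1 site in its promoter as printed above, had 12.4, 9.18, 16.8, 11.1 and 11.4 CPM in WT-C3 and 2.97, 3.19, 6.09, 3.91 and 3.82 CPM in WT-C22, 0.325 of the level in C57BL/6J (log2 -1.62 ± 0.21, adjusted p = 0.000193). It stayed low in C22, at 3.27 to 5.12 CPM, and high in C3 and without c-Jun, at 7.36 to 13.4 CPM and 7.45 to 12.8 CPM, and passed in none of the comparisons of a model or of c-Jun. The part of the AP-1 site in the difference of Mmp3 between the strains was not tested. Mmp17 was also lower in WT-C22 (log2 -0.66 ± 0.12, adjusted p = 0.00187), with no overlap. All 5 mast cell markers were higher in WT-C22, at a summed 66.5 to 267 CPM against 31.8 to 80.8 CPM, and 4 of 5 adipocyte markers, at 707 to 2197 CPM against 447 to 998 CPM. Of the regulators, other proteases and substrates 2, 0 and 3 were higher and 1, 1 and 1 lower. The part of mast cells and adipocytes in the level of Timp4 and the other members was not tested.

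Age was examined in all 25 libraries with a slope in each group, and the mean of the 5 slopes was tested. Of 39 members 15 fell with age and 7 rose, while over all genes 29.1% passed, 15.8% rising and 13.3% falling. The median slope of the members was -0.020 per week on the log2 scale and that of all genes 0.000. The steepest falls were in Adamts19 (-0.265 ± 0.027 per week, adjusted p = 7.09e-07), Adamts17 (-0.232 ± 0.016, adjusted p = 6.57e-09), Adamts20 (-0.157 ± 0.010, adjusted p = 2.58e-09), Adamts4 (-0.156 ± 0.018, adjusted p = 2.77e-06) and Adamts12 (-0.109 ± 0.015, adjusted p = 1.42e-05), and the slopes of these 5 were negative in all 5 groups. Adamts12, a protease of the cartilage oligomeric matrix protein as is Adamts7, ran from 16.7 to 44.8 CPM in WT-C3. All 4 ADAMTS that were higher in C22 were among these falling genes.

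The roles differed in their slopes. Both gelatinases changed, in opposite directions, with Mmp9 rising by 0.168 ± 0.024 per week (adjusted p = 2.91e-05) and Mmp2 falling (-0.059 ± 0.012, adjusted p = 0.00114). Of the inhibitors Timp4 (0.138 ± 0.042, adjusted p = 0.018), Timp2 (0.035 ± 0.007, adjusted p = 0.00106) and Timp3 (0.022 ± 0.007, adjusted p = 0.0311) rose and Timp1 did not pass. Adamts2 and Adamts14 fell (-0.069 ± 0.012, adjusted p = 0.000274, and -0.040 ± 0.012, adjusted p = 0.0154), as did Mmp15, Mmp16, Adamts6, Adamts7, Adamts9, Adamts15 and Adamtsl2, with slopes of -0.075 to -0.052. Adamts5, Mmp11 and Mmp28 rose, by 0.030, 0.039 and 0.026 per week. Mmp14, Mmp17, Mmp19, Adamtsl1 and Adamtsl3, which had moved with the models, showed no slope that passed.

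**Figure D5:**
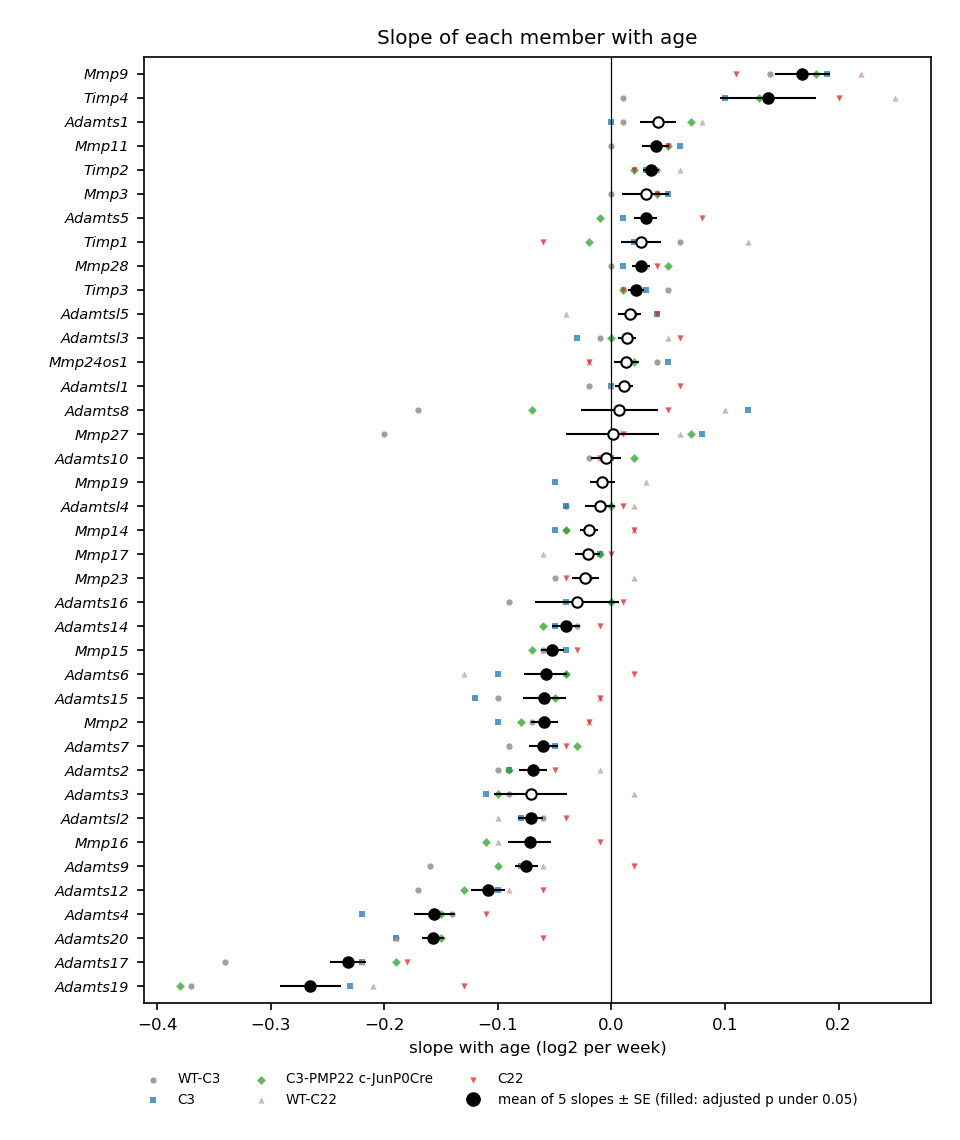
Slope with age in log2 per week (horizontal axis) of the 39 members tested, ordered by the mean of the 5 group slopes, which is shown as a black point with its SE and filled where the adjusted p was under 0.05, with the slope of each group as a small coloured symbol. Adamts19, Adamts17, Adamts20 and Adamts4 fall in all 5 groups, Mmp9 and Timp4 rise in all 5, and the C22 symbol lies nearest to 0 for the first 4.

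Within single groups, a natural spline found an age effect for 4 members in WT-C3 (0.693% of all genes passed), 3 in C3 (2.27%), 5 in C3-PMP22 c-JunP0Cre (3.38%), 5 in WT-C22 (2.86%) and 1 in C22 (0.752%). Adamts17 passed in all 5 groups, and Adamts4 and Adamts20 in every group but C22 (adjusted p = 0.0578 and 0.166 there). Adamts9 passed in WT-C3, Adamts12 and Adamts19 in C3-PMP22 c-JunP0Cre, and Timp4 and Mmp9 in WT-C22. Whether slopes differed between groups was not tested. Of the called mean slopes, 14 of 22 held without any single library, while those of Timp3, Adamts5, Mmp28, Mmp11, Timp4, Adamts14, Adamts15 and Adamts6 were lost without at least 1, with adjusted p of up to 0.212.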

How the data were processed

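RNA-seq counts of 25 libraries of mouse sciatic nerve were used. The authors deposited raw counts per gene, made with cutadapt 2.10, STAR 2.7.5a, UMI-tools 1.1.1 and HTSeq 0.12.4 on GRCm39 with the human PMP22 locus added, and the strand setting of the counting is not given in the sources used here. Lines that name no gene were left out, of which reads on no feature came to 8.12% to 12.1% and ambiguous reads to 1.78% to 2.04% of all. Libraries held 2140142 to 49072746 counts, which sets the counting error, and factors of the trimmed mean of M-values ran from 0.91 to 1.08.

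Members were taken by symbol. Genes with a log2 CPM above 1 in 25% of the libraries (13993) were tested with edgeR 4.0.16 in R 4.3.3 (quasi-likelihood F test, a term for group, Benjamini-Hochberg adjustment over all genes, threshold 0.05), and SE is the log2 fold change divided by the root of F. Age was fitted over 15298 genes in all 25 libraries, as a natural spline of 3 degrees of freedom per group and as the mean of the 5 linear slopes. The script was tested on simulated data. Members passing in a comparison of a model or of c-Jun, up to 16 by smallest adjusted p, and 7 fixed members (Timp1, Timp2, Timp3, Timp4, Mmp2, Mmp9 and Mmp14) are given by library, and Mmp3, Mmp15, Mmp16 and Adamts12 were added after their values were seen. The members and lists were chosen with earlier results of these data known. The replicate number is the age. For C3-PMP22 c-JunP0Cre and C3 libraries of the same age deviated together (correlations 0.439, 0.123, 0.347, 0.265 and 0.616), and in every comparison the numbers pair libraries by age, so the counts with age as a block are given for each and the calls it changes are named. Alternatives were other scalings, filters and samples in the fit, DESeq2 1.42.0, the block and leaving out each library. Only pools are sampled, so p-values measure the spread between pools and ages. The level of 1 marker gene is not reported here.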

Additional observations from a re-analysis of the deposited data

Results flagged for a closer look

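For 5 like replicates, chance gives a gap to the nearest library of over 0.71 of the range in about 1 in 20 groups. The libraries here differ in age, so this rate need not hold. In 6 of 105 groups of 5 libraries 1 library stood that far from the others. These were Mmp14 in WT-C22 at 12 weeks (192 CPM, the others 147 to 159 CPM), Adamts5 in WT-C3 at 9 weeks (237 CPM, the others 175 to 192 CPM) and Adamts4 in C3 at 3 weeks (43.3 CPM, the others 9.74 to 18.4 CPM). Adamts17 in WT-C22 at 3 weeks had 7.44 CPM (the others 1.81 to 3.39 CPM). In C3-PMP22 c-JunP0Cre the library of 12 weeks stood apart for Adamts1 (60.8 CPM, the others 36.9 to 39.2 CPM) and Timp4 (12.6 CPM, the others 5.05 to 6.25 CPM).

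The change in C22 differed from that in C3 for Adamts6 (log2 -1.77), Adamtsl1 (-1.17), Mmp17 (-0.91), Adamts5 (-0.76) and Adamtsl3 (-0.54), by edgeR's test of the difference itself.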

How the results depend on the processing

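In C3 the members called higher numbered 5, and 9 with library size alone, 8 with all 25 libraries in 1 fit and 13 with the replicate block. Over all 13993 genes those called higher numbered 1743, 2582, 2313 and 1807 in these settings. In C22 8 were lower, but 5 with library size alone and 13 with the block, and 5 were higher, but 3 with all 25 libraries. Over all genes 2869 were lower there, 1744 with library size alone and 3110 with the block. Those higher numbered 3070, and 3150 with all 25 libraries. Without c-Jun 1 was higher, but 2 with DESeq2, no filter, filterByExpr, all 25 libraries or the block, and 1 was lower, but 3 with DESeq2, 2 with all 25 libraries and 3 with the block. Over all genes this comparison gave 77 calls, and 250 with DESeq2, 134 without a filter and 110 with filterByExpr. It gave 139 with all 25 libraries and 273 with the block. Age effects within C3 numbered 3, and 6 with a linear slope. Some named calls were lost in other settings that used every library. In C3 Adamts4 was lost with median-ratio size factors, and Adamtsl3 with library size alone, no filter or filterByExpr. The difference for Adamtsl3 was lost with library size alone or no filter. In C22 Adamts20 was lost with median-ratio size factors, DESeq2, filterByExpr or all 25 libraries, and Adamts4 and Adamts19 with all 25 libraries. Adamts2 was lost there with library size alone, no filter, filterByExpr or all 25 libraries. Adamts14 was lost with library size alone, no filter or all 25 libraries, and Adamts1 with library size alone. The cause of these shifts was not tested.

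The log2 value of Timp2 in C3 turned to 0.02 and that of Timp4 to 0.01 with library size alone, that of Timp3 in C22 to 0.17 with library size, 0.01 without a filter and 0.01 with all 25 libraries, and the difference for Mmp9 to 0.01 with the block. Without single libraries, values that turned sign were 0.10 and 0.16 for Timp4 in C3, -0.00, -0.00, -0.05 and -0.02 for Timp2 in C22, 0.02, 0.02, 0.00, 0.01 and 0.03 for Timp3 in C22, and 0.08, 0.09, 0.04, 0.06 and 0.20 for the difference of Mmp9. Without c-Jun they were -0.03 and -0.02 for Timp2, -0.01 for Timp3, -0.15 for Timp4, 0.00 for Mmp2 and 0.12, 0.01, 0.03 and 0.09 for Mmp9, and between the wild types -0.04, -0.03, -0.01, -0.02 and -0.05 for Timp2. None of these passed.

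Leaving out 1 library gave 3 to 11 higher and 3 to 4 lower in C3, 1 to 5 and 5 to 7 in C22, 0 and 4 to 7 in the difference, 1 to 2 and 0 to 1 without c-Jun, and 3 to 6 and 2 to 3 between the wild types. Over all 13993 genes this gave 1205 to 1906 higher and 1040 to 1777 lower in C3. In C22 these were 2539 to 3174 and 2492 to 2920, and in the difference 491 to 837 and 796 to 1152. Without c-Jun they were 15 to 45 and 28 to 53, and between the wild types 1009 to 1412 and 1294 to 1693. Age effects ranged over 0 to 3 in C22, 1 to 6 in C3, 0 to 8 in C3-PMP22 c-JunP0Cre, 0 to 6 in WT-C22 and 0 to 6 in WT-C3, rising slopes over 3 to 8 and falling over 13 to 16.

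In every comparison libraries with the same replicate number share their age, although that of c-Jun was the one whose correlations of deviations were over 0.1 at all 5 ages (elsewhere from -0.226 to 0.363 in C3, from below 0 at 12 weeks to 0.436 at 9 weeks in C22 and 0.046 to 0.654 between the wild types). The block gave 13 higher and 6 lower in C3, 5 and 13 in C22, 0 and 7 in the difference, and 6 and 2 between the wild types, and no call of a member made without the block was lost with it.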
